A study of Homo sapiens with 8 samples.

Results

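The genes described here are 59 genes of the cell cycle, of DNA replication and of DNA repair, followed in a comparison of N6-methyladenosine (m6A) in RNA between CSTF2-knockout and parental liver cancer cells. They were taken from the deposited table of differences by gene name, out of 12058 gene names listed for either cell line, and fall into 19 cyclins, kinases and their regulators, 18 replication factors, 12 mitosis genes and 10 repair genes. Of the 59, 39 were listed for HUH7 and 32 for PLC/PRF/5, 22 of them for both lines. Of all 12058 names, 10447 were listed for HUH7, 5477 for PLC/PRF/5 and 3866 for both. Each of those names was listed for HUH7, PLC/PRF/5 or both, so members listed for neither line have no counterpart among them. The 10 members listed for neither line were CCNB2, CCND2, CCND3, CCNE1, CCNE2, E2F7, TYMS, PLK1, BUB1 and TTK.

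The study compared HUH7 cells in which CSTF2 was knocked out by CRISPR-Cas9 with parental HUH7 cells, and did the same in PLC/PRF/5, a second line of hepatocellular carcinoma cells. CSTF2 belongs to the cleavage stimulation factor, a complex that helps to form the 3′ ends of mRNAs. Each of the 4 cell populations gave 1 library of RNA immunoprecipitated with an m6A antibody (MeRIP-seq) and 1 input library, 8 in all, so no value had a replicate and no test was possible. Whether a knockout line was a single clone or a pool, and how many guides were used, is not given in the sources used here.

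The deposited table gives log2 fold changes only: 1 per gene for 10447 genes in HUH7, and 1 per row for 9516 rows in 5477 genes in PLC/PRF/5, where a gene can have several rows, taken here as peaks. The header does not state whether the knockout is the numerator, so signs are given as deposited, and a positive value is not read as more or less m6A in knockout cells. Read counts were not analysed, so depth is unknown. The values cannot tell apart a change in methylation per transcript, in RNA per cell or in the share of cells that were dividing. CSTF2 itself was not listed for HUH7, and its single PLC/PRF/5 row had a value of -0.50 (log2) in the authors' deposited table, which does not check the knockout. Of 10 hepatocyte lineage genes, 7 were listed for each line, while 8 of 10 markers of other cell types were listed for HUH7 and 2 for PLC/PRF/5; these are differences and not levels, so cell identity could not be checked from them. Of the 8 markers of other cell types in HUH7, 5 were past a 2-fold difference, 4 positive and 1 negative, with a median of 1.59, against 1 of the 7 hepatocyte lineage genes. Over all HUH7 genes, 36.9% were past it, 22.2% with a positive and 14.6% with a negative sign. The 4 positive ones were the fibroblast collagen genes COL1A1 (3.97) and COL1A2 (4.01), the pericyte receptor gene PDGFRB (2.26) and, with a value that many genes share, the smooth muscle actin gene ACTA2 (9.92) in the authors' deposited table. The negative one was CDH5 (-7.94), also with a value that many genes share. CD68 (0.18), PECAM1 (0.92) and EPCAM (-0.38) lay within 2-fold in the authors' deposited table. Leaving out ACTA2 and CDH5, 3 of 6 were past the limit, against 27.8% of all genes without such shared values. The part of these markers in the members' values was not tested.

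Progress through the cell cycle is driven by cyclins bound to cyclin-dependent kinases. Cyclin D with CDK4 or CDK6 phosphorylates RB1, which releases the E2F factors that turn on replication genes. Origins of replication are licensed by ORC, CDC6 and CDT1, which load the MCM2 to MCM7 helicase, and geminin (GMNN) blocks loading a second time. Mitosis then relies on motors, kinases and checkpoint proteins, and ATM and ATR signal DNA breaks and stalled replication forks through CHEK2 and CHEK1. m6A is a mark on RNA known to affect the splicing, stability and translation of mRNAs.

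In HUH7 the 39 listed members had small values at the centre and larger ones at both ends. Their median log2 fold change was 0.13, against 0.20 over all 10447 genes. A log2 fold change with a size of at least 1, which is a 2-fold difference, was found for 14 of 39 members (35.9%), against 36.9% of all genes. Of these, 8 were positive and 6 negative, where 22.2% of all genes were past the same limit with a positive sign and 14.6% with a negative one. Both shares of the members lie near those of the whole column. In all, 24 members were positive and 15 negative, a positive share of 61.5% (exact Clopper-Pearson 95% interval 44.6 to 76.6), against 60.8% of all genes. Relative to the column median of 0.20, 16 members lay above and 23 below.

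MCM4 (1.11) and CDK6 (1.21) were the members just past the 2-fold limit in the authors' deposited table. CDK2 (-0.77) and MKI67 (0.54) were the nearest ones within it in the authors' deposited table. With 1 or more counted from the column median in place of 0, 13 members were past the limit, against 35.8% of all genes, and MCM4 was no longer among them.

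**Figure D1:**
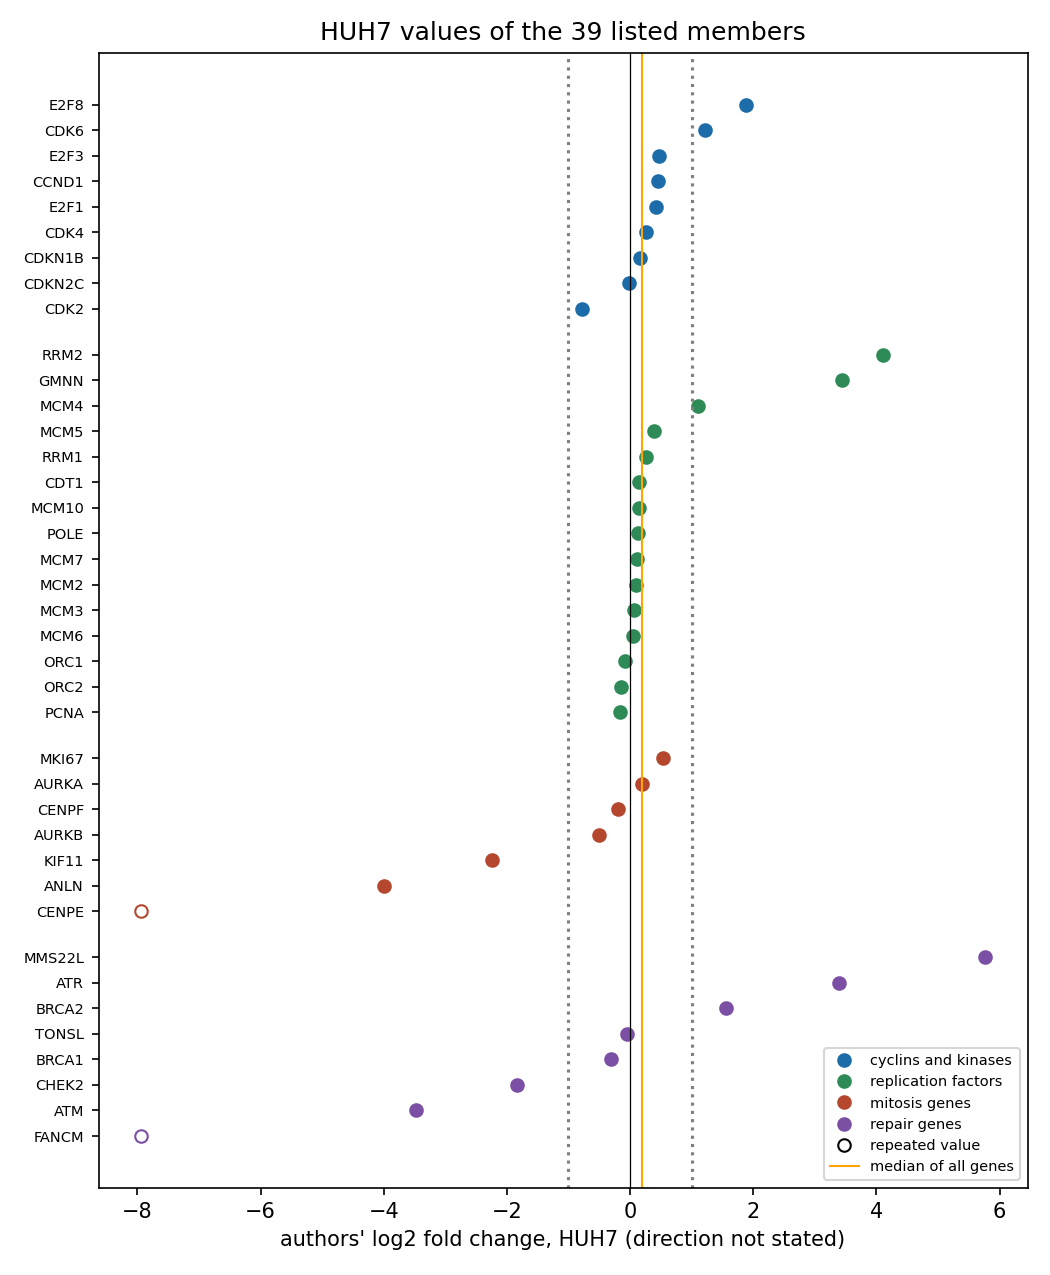
Each point is the authors' log2 fold change of 1 member in HUH7 (x axis), with members in rows grouped by role. Dotted lines mark 1 and -1, the orange line the median of all genes (0.20), and open circles values that many genes share. Mitosis genes run from 0.54 down to -7.94, and repair genes from 5.77 down to -7.94.

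The HUH7 column held a set of values that many genes share, and CENPE and FANCM carried 1 of them. Values above 1 in size on which at least 10 genes agreed to 6 decimals are called repeated here. Such values belonged to 1315 genes (12.6%) and took 16 distinct levels, spaced like the log2 of the whole numbers 3 to 10 plus a constant, within 1e-05. CENPE and FANCM both had -7.94 in the authors' deposited table, the level of whole number 4 on the negative side, which 104 genes shared. Without repeated values, 12 of 37 members (32.4%) were past the 2-fold limit, against 27.8% of all unrepeated genes. The positive ones numbered 8, against 20.1% of unrepeated genes, and the negative ones 4, against 7.72%.

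**Figure D2:**
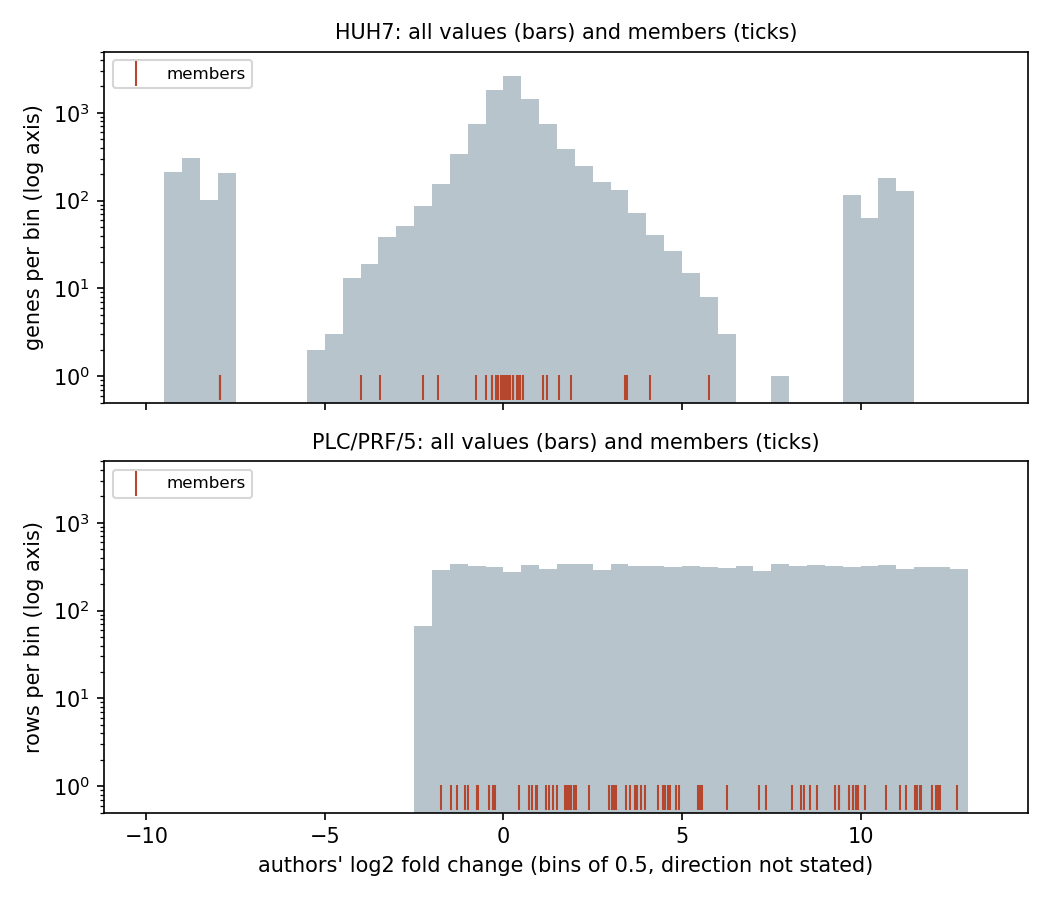
Bars count all values of each column in bins of 0.5 on a log axis, with the log2 fold change on the x axis, and red ticks mark the members. HUH7 values form a central peak with separate groups of repeated values at both ends, while PLC/PRF/5 rows fill their range from -2.12 to 12.999 evenly.

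Among cyclins, kinases and their regulators, values in HUH7 were mostly small and positive. The 9 listed members had a median of 0.43, with 7 positive and 2 negative, and 6 lay above the column median. E2F8, an atypical E2F that represses E2F targets, had the largest value at 1.88 in the authors' deposited table. CDK6, a partner of D-type cyclins, had 1.21 in the authors' deposited table. These 2 of the 9 (22.2%) were the ones past the 2-fold limit, against 36.9% of all genes.

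The remaining regulators lay within 2-fold. Cyclin D1 (CCND1) had 0.46 and its partner kinase CDK4 had 0.26 in the authors' deposited table. The activator E2F genes E2F1 and E2F3 had 0.43 and 0.47 in the authors' deposited table. The kinase inhibitors CDKN1B (p27) and CDKN2C (p18) had 0.17 and -0.023 in the authors' deposited table. CDK2, the partner of cyclins E and A, had the lowest value of the group, -0.77, in the authors' deposited table. The mitotic cyclin genes CCNA2 and CCNB1, the kinase gene CDK1 and the retinoblastoma gene RB1 were listed for PLC/PRF/5 and not for HUH7.

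Replication factors formed a narrow band in HUH7, with RRM2 and GMNN far above it and MCM4 just past the 2-fold limit. Of 15 listed, 12 were positive and 3 negative with a median of 0.13, but only 5 lay above the column median of 0.20 and 10 below it, so the excess of positive signs is not an excess over the column. Past the 2-fold limit were 3 of 15 (20%), against 36.9% of all genes. RRM2 (chromosome 2, 10122568 to 10211010, GRCh38.p14), the regulated small subunit of ribonucleotide reductase, had 4.11 in the authors' deposited table. RRM1, the large subunit of the same enzyme, had 0.25 in the authors' deposited table.

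Geminin (GMNN, chromosome 6, 24774937 to 24786099, GRCh38.p14) had 3.45 in the authors' deposited table. CDT1, the licensing factor that geminin binds, had 0.15 in the authors' deposited table. In both the reductase and the licensing pair, 1 partner was past the 2-fold limit by a wide margin and the other lay near 0.

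The 6 subunits of the MCM2 to MCM7 helicase were all listed and all positive in HUH7, with a median of 0.11, and 2 of the 6 lay above the column median. MCM4 had 1.11 and MCM5 had 0.39 in the authors' deposited table. MCM7 had 0.11, MCM2 had 0.10, MCM3 had 0.058 and MCM6 had 0.043 in the authors' deposited table. MCM10, which helps to start unwinding at the loaded helicase, had 0.14 in the authors' deposited table.

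Origin recognition and polymerase genes lay close to 0. ORC1 and ORC2 had -0.075 and -0.15 in the authors' deposited table. The catalytic subunit gene of DNA polymerase epsilon, POLE, had 0.13, and PCNA, the sliding clamp of the polymerases, had -0.17 in the authors' deposited table. CDC6 and POLA1, the catalytic subunit of DNA polymerase alpha, were listed for PLC/PRF/5 and not for HUH7.

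The 3 mitosis genes past the 2-fold limit in HUH7, ANLN, KIF11 and CENPE, had negative values. Of 7 listed, 2 were positive and 5 negative, with a median of -0.50. The 3 of 7 past the limit stand beside 36.9% of all genes past it, 14.6% with a negative sign. ANLN (chromosome 7, 36389862 to 36453791, GRCh38.p14), which encodes anillin, a scaffold of the contractile ring, had -4.00 in the authors' deposited table. KIF11 (chromosome 10, 92593130 to 92655395, GRCh38.p14), the motor that pushes spindle poles apart, had -2.24 in the authors' deposited table. The third, CENPE (chromosome 4, 103105811 to 103198343, GRCh38.p14), a kinetochore motor, had the repeated value of -7.94 in the authors' deposited table.

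The other 4 mitosis genes lay within 2-fold. MKI67, which encodes the proliferation marker Ki-67, had 0.54 and AURKA, a kinase of the spindle poles, had 0.20 in the authors' deposited table. The kinetochore protein gene CENPF had -0.20 and AURKB, the kinase of the chromosomal passenger complex, had -0.50 in the authors' deposited table. The repeated value of CENPE apart, the 6 remaining genes had a median of -0.35, and 2 of the 6 were past the limit, against 27.8% of all unrepeated genes.

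Repair and checkpoint genes had the widest spread of the 4 roles in HUH7, with 6 of 8 listed genes past the 2-fold limit, 3 with each sign, where 36.9% of all genes were past it, 22.2% with a positive and 14.6% with a negative sign. MMS22L (chromosome 6, 97142161 to 97284035, GRCh38.p14), which acts at stalled forks, had 5.77 in the authors' deposited table, the highest value of all members. TONSL, its partner in the same complex, had -0.047 in the authors' deposited table.

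ATR (chromosome 3, 142449235 to 142578733, GRCh38.p14), the kinase of replication stress, had 3.39 in the authors' deposited table. ATM (chromosome 11, 108223067 to 108369102, GRCh38.p14), the kinase of double-strand breaks, had -3.47 in the authors' deposited table. The 2 kinases thus had values of nearly equal size and opposite sign. CHEK2, a target of ATM, had -1.83 in the authors' deposited table, while CHEK1, a target of ATR, was not listed for HUH7.

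BRCA2, a gene of homologous recombination, had 1.55 in the authors' deposited table. BRCA1, which acts earlier in the same pathway, had -0.32 in the authors' deposited table. FANCM (chromosome 14, 45135930 to 45200890, GRCh38.p14), a translocase of the Fanconi anaemia pathway, had the repeated value of -7.94 in the authors' deposited table. Leaving out that value, 5 of 7 repair genes were past the limit, against 27.8% of all unrepeated genes.

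A wider set of 179 genes of the same pathways, which shares no gene with the 59, had 133 genes listed for HUH7. The median of the 133 was 0.10, and 52 (39.1%) were past the 2-fold limit, 25 positive and 27 negative. Over all HUH7 genes, 36.9% were past it, 22.2% with a positive and 14.6% with a negative sign. Without repeated values, 33 of 114 wider genes (28.9%) were past it, 22 positive and 11 negative. Among all unrepeated genes, 27.8% were past it, 20.1% with a positive and 7.72% with a negative sign. Mitosis members had 0 positive and 2 negative genes past the limit among 6 unrepeated values, with a median of -0.35, and the wider mitosis genes 6 positive and 2 negative among 25, with a median of 0.47. Repair members had 3 positive and 2 negative genes past the limit among 7 unrepeated values, and the wider repair genes 6 positive and 4 negative among 40. Wider replication factors had 5 positive and 3 negative among 28, and wider cyclins and kinases 5 positive and 2 negative among 21. With repeated values included, the wider mitosis genes had 7 positive and 7 negative genes past the limit among 31, and the wider repair genes 6 positive and 11 negative among 47, with a median of -0.025. The differences between the members and the wider lists were not tested.

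**Figure D3:**
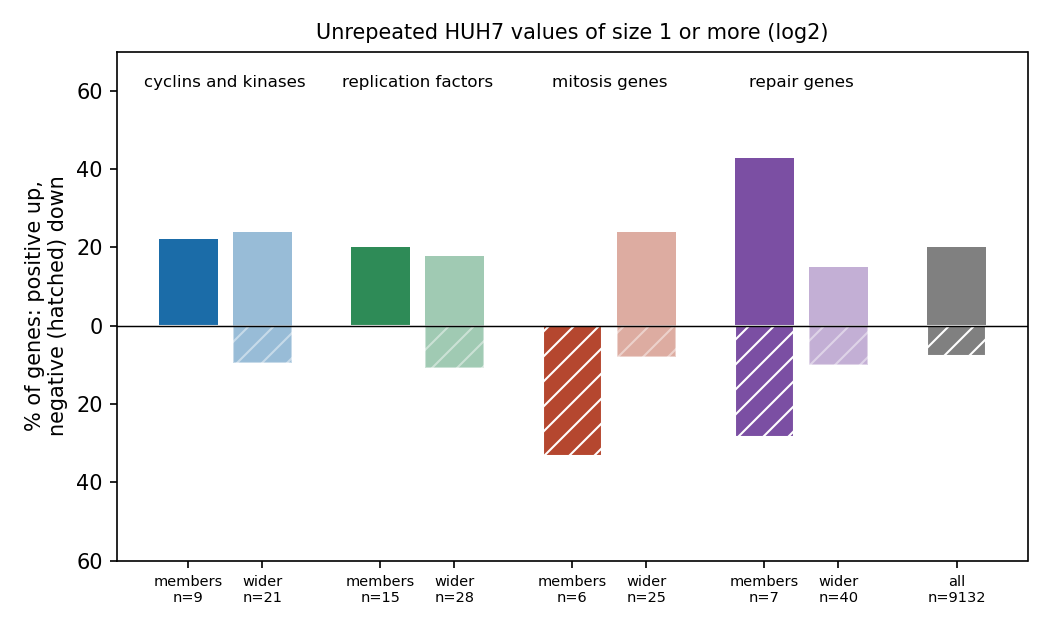
Bars give the percentage of unrepeated HUH7 values with a log2 fold change of 1 or more (upward) or of -1 or less (downward, hatched), for the members and the wider list of each role and for all genes; n is the number of unrepeated values. Mitosis members have 0 positive and 2 negative genes past the limit, while the wider mitosis list has 6 positive and 2 negative.

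Replication and mitosis members also differed in short sequence motifs at their gene starts, a feature of the DNA that the choice of members did not use and that the m6A values do not measure. RefSeq start regions of GRCh38.p14, from 250 bases before to 50 bases after the first listed start, were found for 49 of the 59 members. The motif of E2F factors was searched as TTTCGCGC, TTTGGCGC or TTTCCCGC on both strands, where matches may overlap each other, and the cell cycle homology region (CHR), through which the MuvB complexes act, as TTTGAA or TTCGAA on both strands. An E2F match was present at 10 of 16 replication factors (62.5%), at 3 of 14 cyclins and kinases, at 1 of 9 repair genes and at 0 of 10 mitosis genes, against 2.79% of all 27305 promoters. A CHR match was present at 8 of 10 mitosis genes and at 2 of 16 replication factors, against 16.6% of all promoters. The 100 bases before the start are shown for the replication genes MCM6 (chr2:135876444-135876543, minus strand) and PCNA (chr20:5126623-5126722, minus strand), for the mitosis genes ANLN (chr7:36389762-36389861, plus strand) and KIF11 (chr10:92593030-92593129, plus strand), which had negative HUH7 values, and for MKI67 (chr10:128126424-128126523, minus strand), which had a positive one. Capitals mark E2F matches in MCM6 and PCNA and CHR matches in the other 3.
MCM6: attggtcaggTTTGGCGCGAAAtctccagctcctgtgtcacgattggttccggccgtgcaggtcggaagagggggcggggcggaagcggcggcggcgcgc
PCNA: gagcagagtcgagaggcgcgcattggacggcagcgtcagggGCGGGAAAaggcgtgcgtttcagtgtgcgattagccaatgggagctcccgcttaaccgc
ANLN: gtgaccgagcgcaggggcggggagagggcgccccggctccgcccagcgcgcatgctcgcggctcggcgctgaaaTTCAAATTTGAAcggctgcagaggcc
KIF11: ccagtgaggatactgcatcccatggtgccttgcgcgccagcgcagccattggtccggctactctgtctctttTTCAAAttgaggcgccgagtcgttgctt
MKI67: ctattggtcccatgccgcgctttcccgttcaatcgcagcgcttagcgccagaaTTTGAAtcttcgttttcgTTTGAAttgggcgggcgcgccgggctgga

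In MCM6 the capitals join 2 overlapping E2F matches, 1 on each strand, and in ANLN 2 CHR matches lie end to end. Set beside the HUH7 values, an E2F match was present at 9 of the 20 members within 2-fold whose start region was found, and at 0 of 6 positive and 0 of 6 negative members past the limit. CHR matches were present at 3 of the 6 negative members past the limit (ANLN, KIF11 and ATM), at 0 of the 6 positive ones and at 5 of the 20 within it. These counts follow role as well as value. Among the E2F matches within 2-fold, MCM2, MCM3, MCM6, MCM7, CDT1, POLE and PCNA are replication factors, a role that lay mostly near 0. E2F1 and E2F3 are the others. Role and value cannot be told apart here, the motifs were chosen after the values were seen, and no link between them was tested. A match is a run of letters and was not tested as a binding site.

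PLC/PRF/5 rows of the members took values over nearly the whole range of that column. Rows within each role lay far apart, and the role medians differed, a difference that was not tested. The 32 listed members had 78 rows, 68 positive and 10 negative, and their median was 4.49. The positive share was 87.2% (exact Clopper-Pearson 95% interval 77.7 to 93.7). That interval treats the 78 rows as independent, although they come from 32 genes and rows of 1 gene are not replicates. Of the 78 rows, 67 (85.9%) were past the 2-fold limit, against 87.1% of all rows; 63 were positive and 4 negative, where 79.7% of all rows were past it with a positive sign and 7.31% with a negative one. The column as a whole filled its range evenly, with between 599 and 655 rows in every interval of width 1 from -2 to 13, 15 in all. Its cumulative shares departed from those of an even spread by at most 0.00559, and the members' 78 rows by at most 0.108. An even spread over that range has a median of 5.44 and 86.0% positive values, so the members' high share of positive rows is that of the range and says nothing about them. The cause of the even spread was not tested, and the values below are given as deposited.

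**Figure D4:**
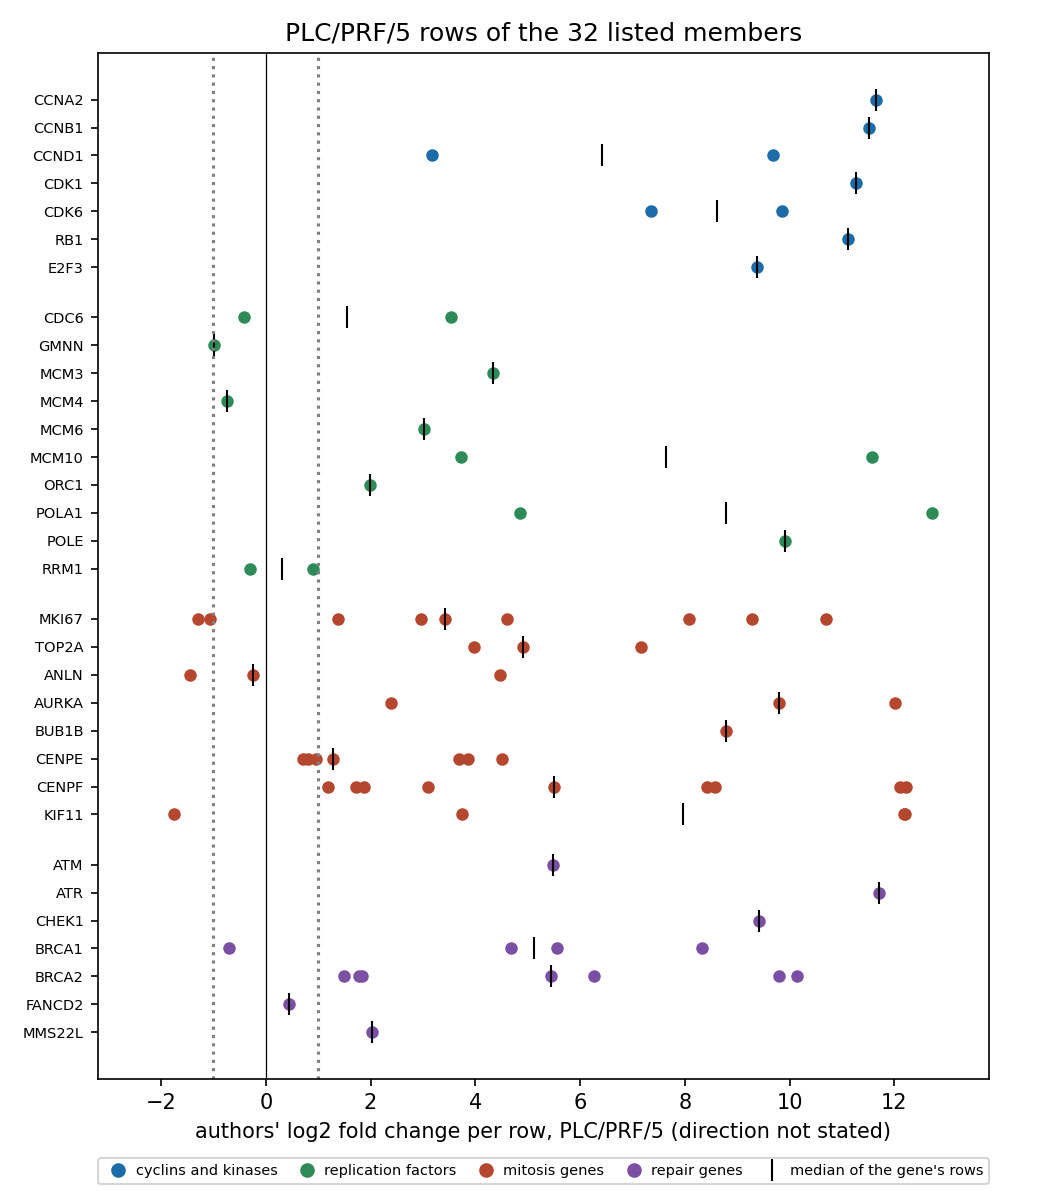
Each point is the authors' log2 fold change of 1 PLC/PRF/5 row (x axis), with the 32 listed members in rows grouped by role, and black ticks mark the median of a gene's rows. Rows of the same gene lie far apart, as in KIF11, from -1.75 to 12.2.

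The 9 rows of cyclins and kinases were all positive, from 3.16 to 11.65. Their median was 9.86, and 8 of the 9 lay above the column median of 5.44. CCNA2, CCNB1 and CDK1, which drive entry into mitosis, had 1 row each at 11.65, 11.52 and 11.27 in the authors' deposited table. RB1 had 11.11 and E2F3 had 9.38 in the authors' deposited table. CDK6 had rows at 9.86 and 7.36, and CCND1 rows at 9.69 and 3.16, in the authors' deposited table. Over all rows of the column, 86.0% were positive.

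Replication factors had 14 rows, 10 positive and 4 negative, with a median of 3.28, and 3 of the 14 lay above the column median. GMNN and MCM4 had 1 negative row each, at -0.997 and -0.75 in the authors' deposited table. CDC6 had rows at 3.53 and -0.41 and RRM1 rows at 0.91 and -0.29 in the authors' deposited table. The other 6 genes had positive rows throughout.

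POLA1 reached the highest value of all member rows, with 12.71 and a second row at 4.84 in the authors' deposited table. MCM10 had 11.57 and 3.72, and POLE had 9.91, in the authors' deposited table. MCM3 had 4.34, MCM6 had 3.03 and ORC1 had 1.98 in the authors' deposited table. RRM2 was not listed under its own name. C2orf48, which RefSeq now lists as a synonym of RRM2, had a row at 4.38 in the authors' deposited table. That row has no coordinates, so it is not read as a value of the RRM2 mRNA.

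Mitosis genes had the most rows per gene, 39 rows in 8 genes, or 4.88 per gene against 1.74 over all genes of the column. The 39 rows had a median of 3.85, and 14 lay above the column median. MKI67 and CENPF had 9 rows each, CENPE had 7 and KIF11 had 4. Over the 32 listed members, the number of rows and the length of the gene on the genome had a Spearman correlation of 0.13 and a Pearson correlation of -0.020, given as a description of genes from the same libraries. That length includes introns. The length of the mRNAs was not examined, so these correlations say nothing about it.

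Within several of these genes the rows lay far apart. MKI67 rows ran from -1.29 to 10.70 with 2 of 9 negative in the authors' deposited table. KIF11 had rows at 12.21, 12.18, 3.75 and -1.75 in the authors' deposited table. ANLN had rows at 4.46, -0.24 and -1.45 in the authors' deposited table, the only mitosis gene whose median was negative.

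The 9 CENPF rows were all positive, from 1.19 to 12.22 in the authors' deposited table. The 7 CENPE rows were positive too but lower, from 0.71 to 4.51 in the authors' deposited table. TOP2A, the topoisomerase that untangles sister chromatids, had rows at 7.16, 4.90 and 3.98 in the authors' deposited table. AURKA had rows at 12.01, 9.80 and 2.39, and the checkpoint kinase gene BUB1B had 1 at 8.79, in the authors' deposited table.

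Repair genes had 16 rows in 7 genes, 15 positive and 1 negative, with a median of 5.46, and 9 of the 16 lay above the column median. ATR had 11.71 and its target CHEK1 had 9.41 in the authors' deposited table. ATM had 5.49 and MMS22L had 2.03 in the authors' deposited table. FANCD2, a clamp protein of the Fanconi anaemia pathway, had its single row at 0.44 in the authors' deposited table.

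BRCA2 had 7 positive rows, from 1.49 to 10.14 in the authors' deposited table. BRCA1 had rows at 8.33, 5.56, 4.68 and -0.70 in the authors' deposited table, the last being the negative row of the group. CHEK2, FANCM and TONSL were listed for HUH7 and not for PLC/PRF/5.

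The HUH7 and PLC/PRF/5 values of the 22 members listed for both lines were not ordered alike. With each PLC/PRF/5 gene at the median of its rows, 14 of 22 members (63.6%) had the same sign, 13 positive and 1 negative, against 56.9% of the 3866 genes shared by the lines. The count takes the 2 columns to run in the same direction, on which the header is silent. It also depends on how many values of each column are positive, 60.8% of HUH7 genes and 86.0% of PLC/PRF/5 rows. The count therefore cannot show whether the lines are alike. Over the 22 members, which are not independent replicates, the Spearman correlation was 0.069 and the Pearson correlation 0.13. Without CENPE, whose HUH7 value was a repeated one, they were -0.0065 and -0.0100 over 21 members.

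Members past the 2-fold limit in HUH7 took both signs and all heights in PLC/PRF/5. ATR was positive in both, and the authors' deposited table gave it 3.39 for HUH7 and 11.71 for PLC/PRF/5. For ATM the authors' deposited table gave -3.47 for HUH7 and 5.49 for PLC/PRF/5. ANLN was the 1 member negative in both, with -4.00 in HUH7 and a median of -0.24 over its PLC/PRF/5 rows. MMS22L was given 5.77 for HUH7 by the authors' deposited table but 2.03 for PLC/PRF/5, below the middle of that column.

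**Figure D5:**
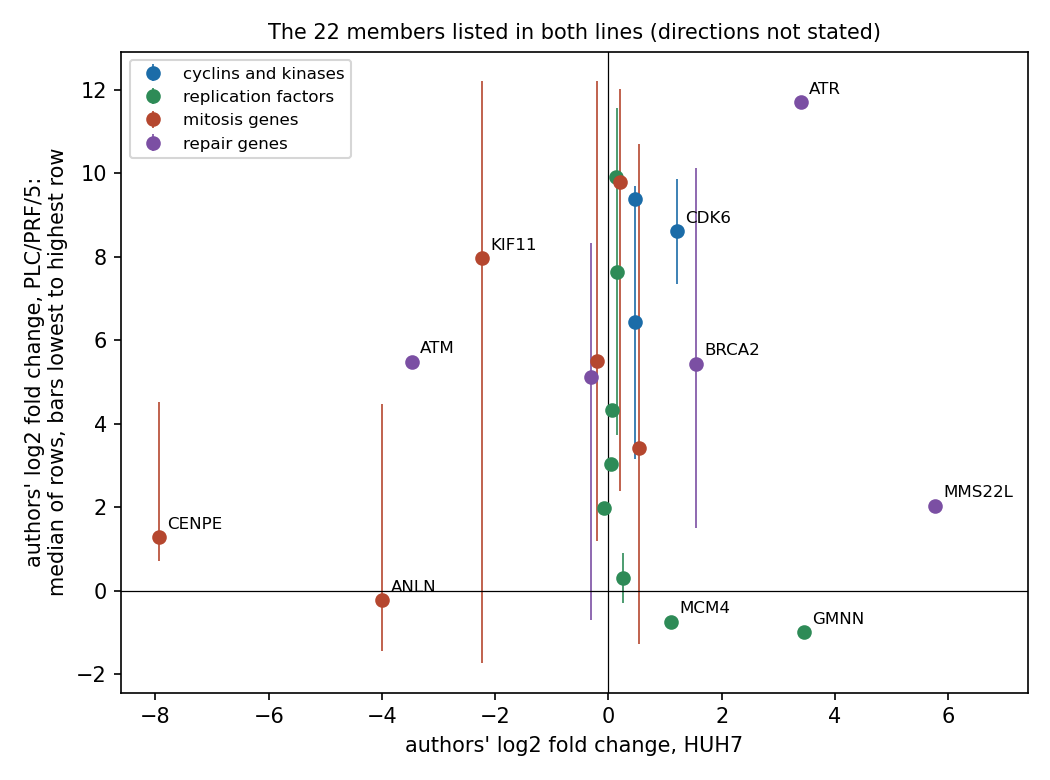
Points are the 22 members listed for both lines, with the authors' HUH7 log2 fold change on the x axis and the median of the PLC/PRF/5 rows on the y axis; vertical bars run from the lowest to the highest row. Members past the 2-fold limit in HUH7 are named, and 14 of the 22 points have the same sign on both axes.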

How the data were processed

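MeRIP-seq libraries of CSTF2-knockout and parental HUH7 and PLC/PRF/5 cells were grouped by title, 1 library per group. Per the labels' protocols, mRNA was enriched on oligo(dT) beads, broken into short fragments and pulled down with an m6A antibody. The deposited values are the authors' log2 fold changes, in 1 column per line, per the file headers. The submitters' processing notes name FastQC 0.12.0 and build hg38. Nothing in the sources used here gives the aligner, peak caller, scaling between IP and input, thresholds or direction.

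Members were matched by exact gene name and counted where the log2 fold change had a size of at least 1. Shares carry exact (Clopper-Pearson) 95% intervals over the genes or rows listed, with no error between libraries. They treat genes or rows as independent, which rows of 1 gene are not. No test was run, because no group had a replicate and the table holds no counts. Members, role groups and wider lists were chosen with earlier results of these data known. The wider lists had a naming rule: the 3 largest unrepeated HUH7 values per role. The promoter motifs and the genes whose start regions are printed were chosen after the values were seen. Coordinates and start regions come from RefSeq GRCh38.p14. Alternatives were the fold limit, repeated values, centring, older symbols, and the value given to a gene with several rows. Python 3.11.15, pandas 2.3.3 and SciPy 1.17.1 were used, and the counting was tested on simulated data.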

Additional observations from a re-analysis of the deposited data

Results flagged for a closer look

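Of the 22 members listed for both lines, 6 (27.3%) had an HUH7 value of one sign and PLC/PRF/5 rows all of the other, against 36.9% of the 3866 genes shared by the lines. The difference between the lines was not tested, and it assumes that both columns use the same direction. Since 86.0% of all PLC/PRF/5 rows were positive, a gene negative in HUH7 meets this rule more readily than a positive one. GMNN had 3.45 in HUH7 and -0.997 in its single PLC/PRF/5 row in the authors' deposited table. MCM4 had 1.11 in HUH7 and -0.75 in its single row in the authors' deposited table. ATM had -3.47 in HUH7 and 5.49 in its single row in the authors' deposited table. CENPE had the repeated value of -7.94 in HUH7 in the authors' deposited table, and its 7 PLC/PRF/5 rows had a median of 1.28. CENPF had -0.20 in HUH7 in the authors' deposited table, and its 9 rows had a median of 5.50. ORC1 had -0.075 in HUH7 and 1.98 in its single row in the authors' deposited table.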

How the results depend on the processing

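No paired analysis was possible because each group held 1 library, and for the same reason no replicate could be left out. At a 4-fold limit, 9 in place of 14 HUH7 members were past it, a move of more than 1.5 times. The shares of all genes past the 4-fold and 1.5-fold limits were not counted, so these counts have no background beside them. Relative to the column median, the share of positive HUH7 members fell to 41.0%, against 61.5% as deposited, and that of PLC/PRF/5 member rows to 43.6%, against 87.2%; centring moves the zero by construction. The other 19 alternatives kept their values within 1.5 times (counts) or within the interval of the share. Among them were 1.5-fold limits, repeated values left out (also by role), and the 12 to 14 members of equal sign, of 21 or 22, or 11 of the 17 whose PLC/PRF/5 rows had 1 sign. Older symbols added 1 PLC/PRF/5 row and no HUH7 gene. Centring the 2-fold limit and leaving out repeated values by role were chosen after seeing the data. Depth and replicate spread are unknown, so no single value carries an error.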

Other observations

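The genes named here had the 3 largest unrepeated HUH7 values of each wider pathway list, so their size was set by that choice. Of all wider genes with unrepeated values, 33 of 114 (28.9%) were past the 2-fold limit, against 27.8% of all unrepeated genes. Among repair genes, RAD18, a ubiquitin ligase that marks PCNA at stalled forks, had 4.11, the nuclease gene ERCC4 had 2.71 and the RecQ helicase gene WRN had -2.76 in the authors' deposited table. RFC5, a subunit of the clamp loader, had -3.61 among replication factors, while ORC4 had 2.13 and the origin firing gene TICRR had 2.01, in the authors' deposited table. Among mitosis genes, the condensin subunit gene NCAPH had 3.39, the centriole kinase gene PLK4 had 2.01 and the spindle protein gene NUSAP1 had 1.58 in the authors' deposited table. LIN9, a MuvB subunit, had 2.44, and E2F2 and E2F4 had 2.23 and 2.15, in the authors' deposited table.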
